A study of Mus musculus with 30 samples.

Results

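The 10 livers compared here came from male mice that received vehicle alone, 5 wild-type and 5 Nrf2-knockout, out of 30 liver libraries in the series. The comparison asks which hepatic transcripts depend on NRF2 in the absence of an inducer, and which stand higher without it. All mice were of the albino strain B6(Cg)-Tyr c-2J/J, which is of C57BL/6J background, and were 7 to 10 weeks of age, and each was given 1 oral dose of vehicle (DMSO, Cremophor-EL and PBS) 24 hours before the liver was taken. The knockout is a germline allele, so NRF2 is missing from every cell type of the liver and from earliest development. Wild-type mice were purchased from the Jackson Laboratory, whereas Nrf2-knockout mice were bred from homozygous parents, so that colony and genotype cannot be told apart. The labels name a separate sample for each library, do not give the day on which RNA was isolated, and tie no replicate number to a litter or day.

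NRF2, encoded by Nfe2l2, is a basic leucine zipper transcription factor. In unstressed cells it is bound by KEAP1, the adaptor that hands it to a ubiquitin ligase for degradation, and the small fraction that escapes pairs with small MAF proteins at antioxidant response elements. Its classical targets in the liver are enzymes that conjugate, reduce and export reactive compounds and enzymes that supply glutathione and NADPH. The remaining libraries of the series are Keap1 C151S mice, in which a sensor cysteine of KEAP1 is replaced by serine, given vehicle, and mice of all 3 genotypes given the triterpenoid CDDO-Me at 30 µmol/kg. These are used below only where they bear on the basal comparison.

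Between 23667068 and 42073169 read pairs per library were assigned to genes, with 23667068 to 37321826 in the wild-type and 27793160 to 42073169 in the knockout libraries. Levels are given as CPM, the counts of a gene scaled to the TMM-adjusted size of its library, which are not divided by gene length and are therefore compared between mice and not between genes. Differences are log2 values, knockout minus wild-type, and a gene is said to be lower or higher when the false discovery rate (FDR) was under 0.05 and the log2 difference at least 0.5 in size. P-values measure the spread between mice of a group. Of 14030 genes tested, 579 (4.13%) were lower and 883 (6.29%) were higher in the knockout livers, against 4694 genes with an unadjusted p under 0.05. With upper-quartile in place of TMM scaling the split was 426 lower and 1307 higher, or 75.4% of calls higher instead of 60.4%. The number of higher genes also leaned on single mice. It was 495 without knockout replicate 3, 517 without wild-type replicate 4, 567 without wild-type replicate 5 and 1373 without knockout replicate 1.

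Of the 100 genes with the lowest p-values, 88 were lower and 12 were higher in the knockout. Genes lower in the knockout had a median of 35.83 CPM in wild-type liver and genes higher in the knockout a median of 4.58 CPM in knockout liver, so that the second set rests on fewer counts. The median over all tested genes was 11.84 CPM in wild-type liver. A difference of at least 4-fold was found for 66 lower and 51 higher genes, and of at least 2-fold for 200 lower and 325 higher genes.

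**Figure D1:**
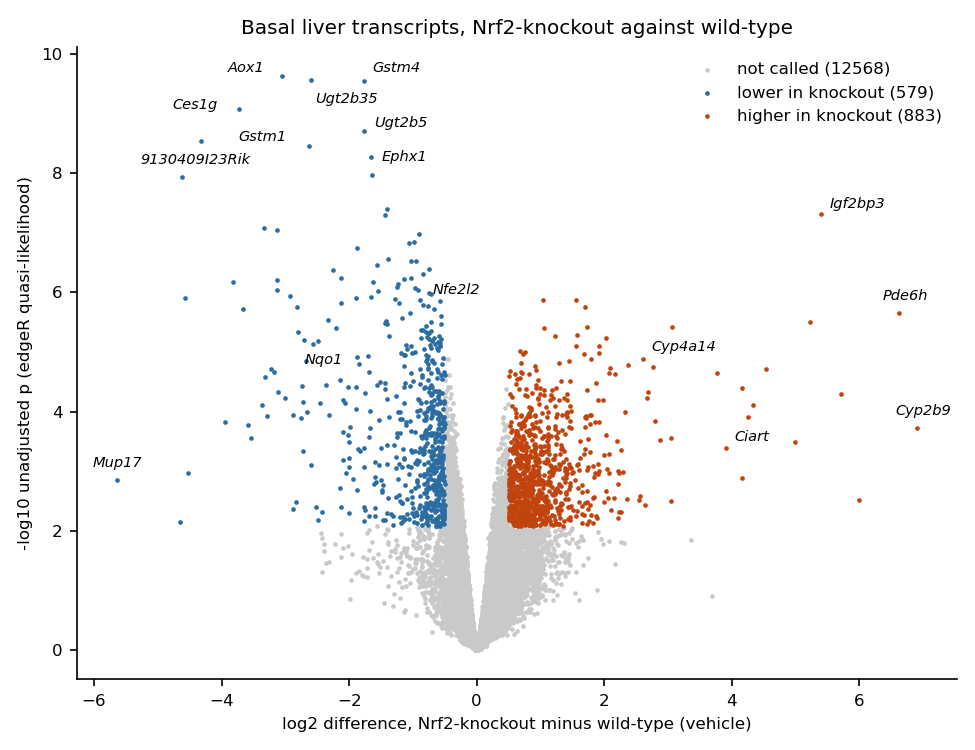
Each point is 1 of 14030 tested genes, with the log2 difference between knockout and wild-type on the horizontal axis and the -log10 of the unadjusted p on the vertical axis. The points highest on the vertical axis, Aox1, Ugt2b35 and Gstm4, are lower in the knockout, and Igf2bp3 is the highest point on the other side.

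Nfe2l2 itself (ENSMUSG00000015839.6, chr2:75675513-75704641, GRCm38, minus strand) was measured at 68.9, 64.0, 66.4, 70.9 and 60.3 CPM in the wild-type livers and at 31.2, 37.1, 39.8, 38.1 and 29.5 CPM in the knockout livers. Every knockout mouse lay below every wild-type mouse, and the log2 difference was -0.89 with a standard error of 0.10 and an adjusted p of 0.000394. About 35.1 CPM thus remained in knockout liver. The knockout allele replaces the DNA-binding region and keeps other exons, and counts over the whole gene do not separate deleted from retained exons. Keap1, the repressor, was at 55.1 ± 7.07 CPM (SD, n = 5) in wild-type and 48.0 ± 6.24 CPM in knockout liver, a log2 difference of -0.18 that did not pass the test. Of the 11 NRF2, KEAP1 and partner factors, 2 were lower and none was higher, with a median log2 difference of -0.17 against 0.00922 over all tested genes. The second was Bach2, a repressor that competes with NRF2 for its sites and is best known from lymphocytes, with a log2 difference of -1.20 and overlapping ranges. Its call was lost in 5 of the 10 fits that each left out 1 mouse. Mafg, a small MAF partner, was at 90.5 ± 4.41 CPM in wild-type against 79.7 ± 27.1 CPM in knockout liver and did not pass the test. Sqstm1, which encodes the p62 protein that binds KEAP1, ranged from 386 to 514 CPM in wild-type and from 246 to 360 CPM in knockout liver, without overlap, yet with an adjusted p of 0.0537.

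The core antioxidant response element is often written TGACNNNGC, where N is any base. Windows from 250 bases before to 50 bases after annotated starts were read from RefSeq (GRCm38.p6) and searched on both strands, and 12.4% of all 32851 windows held at least 1 match. The longer form TGACTCAGC, which is contained in the first, was found in 0.454% of windows. Windows were matched to 76.7% of the lower genes and 73.4% of the higher genes, and with under 80% matched a comparison of the shares between these sets is void and is not given. Shown are the stretches of 100 bases that hold matches upstream of the start, from the lower genes of lowest p with a match, because these are the letters that NRF2 is known to read. They are written 5′ to 3′ in the direction of the gene, with matches in capitals, and a match on the opposite strand therefore begins with GC and ends with TCA. Ugdh is at chr5:65435902-65436001 on the minus strand, 9130409I23Rik at chr1:181051072-181051171 on the plus strand, Txnrd1 at chr10:82859068-82859167 on the plus strand, Gsta3 at chr1:21240418-21240517 on the plus strand and Hfe at chr13:23710868-23710967 on the minus strand.
Ugdh: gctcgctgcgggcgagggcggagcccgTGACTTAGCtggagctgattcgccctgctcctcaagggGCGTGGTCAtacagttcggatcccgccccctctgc
9130409I23Rik: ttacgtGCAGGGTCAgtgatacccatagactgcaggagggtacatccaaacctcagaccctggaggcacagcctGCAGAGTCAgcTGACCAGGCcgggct
Txnrd1: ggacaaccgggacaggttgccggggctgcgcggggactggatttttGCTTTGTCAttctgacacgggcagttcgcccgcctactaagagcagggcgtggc
Gsta3: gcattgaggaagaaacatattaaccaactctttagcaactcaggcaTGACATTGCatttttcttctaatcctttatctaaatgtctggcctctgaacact
Hfe: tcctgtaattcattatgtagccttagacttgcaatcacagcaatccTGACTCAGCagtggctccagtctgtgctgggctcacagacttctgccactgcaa

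The 2 matches of Ugdh begin 132 and 94 bases before the start and the 3 of 9130409I23Rik 159, 91 and 80 bases before it. The match of Txnrd1 lies 92, that of Gsta3 121 and that of Hfe, the longer form, 67 bases before the start. In Srxn1 the match follows the start and is not shown. No match was found in the windows of Aox1, Ces1g, Gstm1, Ugt2b35 and Nqo1, which says only that these letters are not in these windows.

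Oxidation of aldehydes and aromatic heterocycles was the function of the gene with the lowest p-value. Aox1 (ENSMUSG00000063558.4, chr1:58029931-58106413), which encodes an aldehyde oxidase, was at 187, 149, 168, 137 and 142 CPM in the wild-type livers and at 19.7, 16.4, 13.4, 20.1 and 24.0 CPM in the knockout livers. The 2 sets of mice were far apart, with a fitted level 8.27-fold lower in the knockout, a log2 difference of -3.05 with a standard error of 0.16 and an adjusted p of 1.32e-06. Aox3, a related aldehyde oxidase, was at 683 to 1005 CPM in wild-type against 93.9 to 228 CPM in knockout liver, 4.76-fold lower. Aldh1a7, an aldehyde dehydrogenase, was 1.71-fold lower, at 305 ± 21.5 CPM in wild-type against 176 ± 23.8 CPM in knockout liver. In the whole list of 15 tested aldehyde, flavin and purine oxidases, 4 were lower and 1 was higher, and the median log2 difference of -0.09 was close to that of all genes.

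Glutathione conjugation was among the most broadly affected functions. Glutathione S-transferases join electrophiles to glutathione, and 13 of the 22 tested members were lower and none was higher in the knockout livers, with a median log2 difference of -1.02. Gstm1 was at 2159, 2702, 1663, 1878 and 1630 CPM in wild-type and at 288, 251, 333, 374 and 358 CPM in knockout liver, 6.17-fold lower. Gstm4, of the same mu class, was at 97.2 ± 9.20 CPM in wild-type against 28.3 ± 2.60 CPM in knockout liver, a log2 difference of -1.76 with a standard error of 0.09. Gsta3, of the alpha class, was at 1754 to 1988 CPM in wild-type against 571 to 991 CPM in knockout liver. Gsta1 was nearly lost, with 43 to 109 counts in the wild-type libraries and 0 to 10 counts in the knockout libraries, a 23.8-fold difference that rests on few counts. The pi-class member Gstp1 was 2.05-fold and the membrane-bound Mgst1 2.03-fold lower, each without overlap between the groups. The 5 members with a log2 difference above 0 reached at most 0.32, and none of them passed the test. Members of these families, like the Ugt2b, Ces1 and Mup clusters below, are near copies of each other, and between 10.63% and 16.93% of read pairs of these libraries mapped to several places and were not counted, so that the split between close paralogs is uncertain.

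Glucuronidation, which attaches glucuronic acid to drugs, bilirubin and steroids, followed the same pattern at the transferases and at the supply of their cosubstrate. Of 19 tested members 10 were lower and none was higher, with a median log2 difference of -0.71. Ugt2b35 (chr5:87000860-87013275) was at 363, 251, 313, 313 and 311 CPM in wild-type and at 61.3, 40.9, 50.2, 42.5 and 58.5 CPM in knockout liver, with a log2 difference of -2.60 and an adjusted p of 1.32e-06. Its neighbour Gm18635, annotated just downstream as a processed pseudogene, was 20.03-fold lower, on counts of 124 to 170 in wild-type and 4 to 14 in knockout libraries. Ugt2b5 was 3.42-fold and Ugt2b36 2.65-fold lower. Ugdh, the enzyme that oxidizes UDP-glucose to UDP-glucuronate and whose upstream stretch is printed above, was at 196 to 256 CPM in wild-type against 63.8 to 86.3 CPM in knockout liver, 3.13-fold lower. Entpd5, an endoplasmic reticulum enzyme that hydrolyses the UDP left by glycosyl transfer, was 2.698-fold lower, at 307 to 410 CPM in wild-type against 113 to 164 CPM in knockout liver.

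Carboxylesterases, serine hydrolases that cleave drug and lipid esters, had the largest share of losses of any list in all 10 libraries, though not in the 7 libraries described below, with 10 of 15 tested members lower, none higher and a median log2 difference of -1.12. Ces1g (ENSMUSG00000057074.6, chr8:93302369-93337308) was at 331, 194, 237, 331 and 273 CPM in wild-type and at 24.9, 15.0, 21.2, 14.3 and 26.5 CPM in knockout liver. This is a 13.2-fold difference, a log2 difference of -3.73 with a standard error of 0.22. Ces1b was 8.77-fold lower, at 93.3 to 112 CPM in wild-type against 4.78 to 16.3 CPM in knockout liver, and Ces1f was 3.66-fold lower. Among the 12 lower genes of lowest p, the largest loss was at 9130409I23Rik, a gene near Ephx1 on chromosome 1 whose product is not characterized, at 22.3 to 30.4 CPM in wild-type against 0.370 to 1.59 CPM in knockout liver, 24.6-fold lower.

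Quinone, carbonyl and epoxide enzymes include the best known NRF2 markers, and 7 of 22 tested were lower and none was higher, with a median log2 difference of -0.27. Nqo1, the quinone reductase that serves as a standard readout of NRF2 activity, was at 9.22, 9.19, 4.51, 8.32 and 4.73 CPM in wild-type and 1.31, 1.68, 2.72, 2.08 and 1.99 CPM in knockout mice. The groups did not overlap, and the difference was 3.60-fold with an adjusted p of 0.00159. Ephx1, microsomal epoxide hydrolase, was at 503 to 687 CPM in wild-type against 152 to 193 CPM in knockout liver, 3.15-fold lower. Cbr3, a carbonyl reductase, was near the lower end of what the depth can show, at 0.564 ± 0.242 CPM in wild-type against 0.343 ± 0.132 CPM in knockout liver, and no difference was detectable (adjusted p of 0.217). Gpx2, a glutathione peroxidase of the gut, was at 0.0314 to 0.103 CPM in wild-type and at most 0.0990 CPM in knockout liver, under the limit for testing. By qPCR the paper describes a trend to lower levels in vehicle-treated knockout than wild-type liver for each gene it examined. Cbr3 and Gpx2 are among them, so the sequencing counts here do not settle their basal dependence on NRF2.

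**Figure D2:**
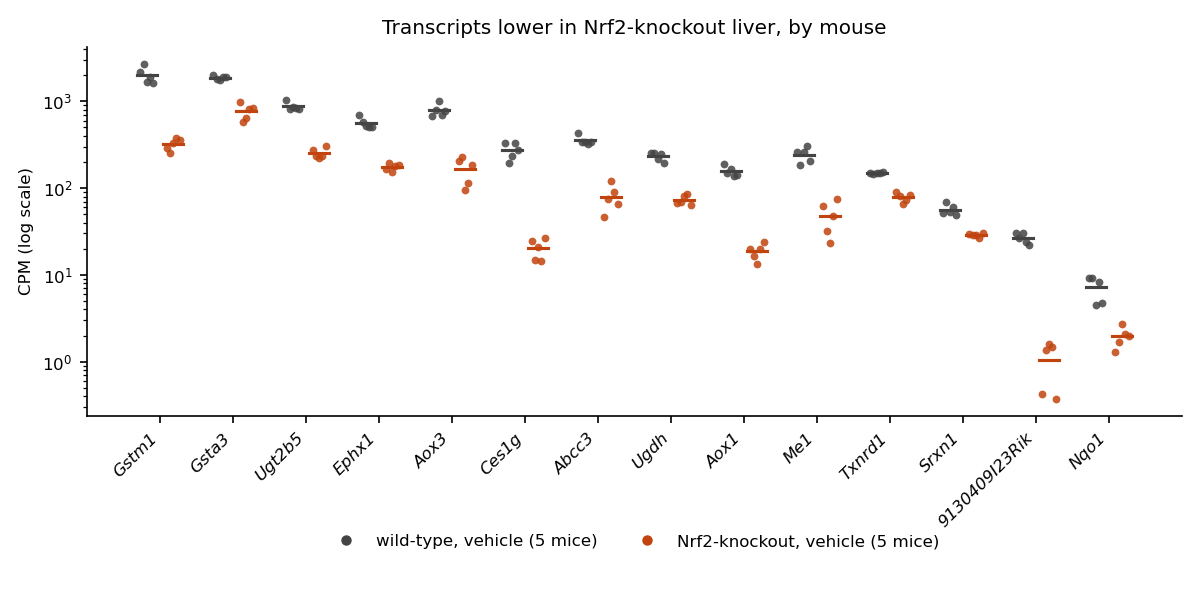
CPM on a log scale in each of 5 wild-type and 5 Nrf2-knockout mice given vehicle for 14 transcripts lower in the knockout, with a line at each group mean. The groups do not overlap for any of the 14 genes, and the fitted difference runs from 1.86-fold at Txnrd1 to 24.6-fold at 9130409I23Rik. The genes were drawn from those called lower in these same mice, so this separation is no further test.

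Genes of glutathione supply were lower at single steps. Of 16 tested genes of glutathione synthesis and peroxidases, 3 were lower and 1 was higher, and the median log2 difference was -0.05. Gclc, the catalytic subunit of the rate-limiting glutamate-cysteine ligase, was at 445, 365, 375, 387 and 378 CPM in wild-type and at 114, 125, 105, 197 and 271 CPM in knockout liver, 2.37-fold lower. Knockout replicates 4 and 5 stood above the other 3 knockout mice, and all 5 were below the wild-type mice. Gclm, the modifier subunit, fell by 0.47 on the log2 scale with an adjusted p of 0.00535, which is under the size required here, although its groups did not overlap. Gsr, which regenerates glutathione, was 1.77-fold lower, and Gpx4, the peroxidase of membrane lipid peroxides, 1.51-fold lower. Gss, the second enzyme of synthesis, had a log2 difference of 0.06, and Gpx1, the abundant cytosolic peroxidase, one of -0.07, and neither passed the test.

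In the thioredoxin system, 3 of 17 tested genes were lower and 1 was higher, and 15 of the 17 had a log2 difference below 0. Txnrd1, thioredoxin reductase, was at 149, 144, 149, 149 and 152 CPM in wild-type and at 89.5, 81.8, 66.2, 73.3 and 82.9 CPM in knockout liver, a log2 difference of -0.90 with a standard error of 0.08. Srxn1, which reduces overoxidized peroxiredoxins, was at 49.5 to 68.7 CPM in wild-type and within a narrow 26.7 to 30.4 CPM in knockout liver, 1.94-fold lower. Txn1, thioredoxin itself, was 1.46-fold lower, and its log2 difference of -0.54 was reduced to -0.46 without knockout replicate 3, under the size required. Sod3, extracellular superoxide dismutase, was the 1 higher member, at 19.8 ± 4.64 CPM in wild-type against 39.0 ± 11.5 CPM in knockout liver.

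Of 12 tested genes of NADPH supply, 2 were lower and none was higher, with a median log2 difference of -0.16. Me1, malic enzyme, was at 262, 186, 259, 302 and 203 CPM in wild-type and at 61.4, 31.7, 23.3, 47.9 and 74.9 CPM in knockout liver, 5.02-fold lower. Tkt, transketolase, was 1.63-fold lower, at 163 ± 11.9 CPM in wild-type against 98.9 ± 15.1 CPM in knockout liver. Pgd, of the oxidative pentose phosphate pathway, fell by 0.36 on the log2 scale with an adjusted p of 0.0171, under the size required. G6pdx, which opens that pathway, was at 4.31 ± 1.14 and 4.17 ± 1.10 CPM and Taldo1 at 104 ± 1.11 and 95.1 ± 8.63 CPM in wild-type and knockout liver, and no difference was found for either.

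Export pumps of the ABC family were lower at 4 and higher at 1 of 15 tested genes. Abcc3, the basolateral pump for glucuronides, was 4.37-fold lower, at 326 to 425 CPM in wild-type against 46.8 to 120 CPM in knockout liver. Abcg2, a canalicular pump for drugs and urate, was 1.86-fold lower. Abcb11, the bile salt export pump, was 1.42-fold lower, a log2 difference of -0.51 just past the size required. Its log2 difference lay between -0.46 and -0.56 in the fits that each left out 1 mouse and missed that size in 5 of 10. In the list of bile acid synthesis and transport, 3 of 14 tested genes were lower and none was higher. Baat, which conjugates bile acids to taurine, was 1.53-fold lower, at 307 ± 8.13 CPM in wild-type against 199 ± 36.0 CPM in knockout liver. Cyp27a1 and Cyp7b1, of the alternative synthesis pathway, were 1.42-fold and 3.21-fold lower with overlapping groups, and each lost its call in 8 of the 10 fits that left out 1 mouse.

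Of 16 tested genes of heme and iron handling, 5 were lower and 1 was higher. Hfe, the membrane protein altered in hereditary hemochromatosis and the one with the longer element in the stretch above, was at 53.3 to 61.6 CPM in wild-type against 30.0 to 38.5 CPM in knockout liver, 1.67-fold lower. Blvrb, biliverdin reductase B, was 2.17-fold lower and the ferritin light chain Ftl1 1.75-fold lower. Hamp2, of the hepcidin family, was the higher member, at 20.1 to 40.2 CPM in wild-type against 50.3 to 180 CPM in knockout liver.

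Cytochromes P450 and their receptors split, with 9 of 28 tested lower and 4 higher, and a median log2 difference of -0.51. Cyp2c29 was at 2113 to 3378 CPM in wild-type against 414 to 1187 CPM in knockout liver, 2.94-fold lower, and Cyp3a25 was 1.77-fold lower. The 4 higher members were Cyp2c40, Cyp2b9, Cyp2a22 and Cyp2a4, of which Cyp2c40, Cyp2b9 and Cyp2a4 are known as female-biased genes of mouse liver. Cyp2b9 was at 0.220, 0.0343, 0, 0 and 0.494 CPM in wild-type and at 9.25, 0.914, 59.1, 6.96 and 4.65 CPM in knockout mice, so that replicate 3 stood apart within a group that was above wild-type throughout. Cyp2c40 was at 1.30 to 3.12 CPM in wild-type and at 85.5, 13.4, 101, 25.5 and 3.91 CPM in knockout mice. Cyp2a4 ranged from 0.337 to 244 CPM in the knockout and overlapped with wild-type, and its adjusted p of 0.0284 was lost in 5 of the 10 fits that left out 1 mouse. Cyp2a22 was 4.66-fold higher. Cyp2b9 and Cyp2a4 were scarce in most wild-type mice and could pass the filter on low counts through the knockout libraries, which limits their p-values.

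Among genes known to be male-biased in mouse liver, Mup20, a major urinary protein, was at 1437 to 2513 CPM in wild-type against 391 to 1361 CPM in knockout liver, 2.65-fold lower. Cyp4a12a, the male-biased arachidonate hydroxylase, was at 243 to 418 CPM in wild-type and at 204, 105, 36.0, 65.1 and 179 CPM in knockout mice, 2.79-fold lower, with a call lost in 3 of the 10 fits that left out 1 mouse. Mup17 had the largest fitted loss among genes with a mean of at least 1 CPM in wild-type liver, 49.7-fold, with wide spread in both groups: 1204, 32.7, 498, 756 and 963 CPM in wild-type and 53.1, 1.42, 0.674, 0.330 and 14.5 CPM in knockout mice. Elovl3, a male-biased and clock-controlled fatty acid elongase, was at 307 ± 79.8 CPM in wild-type against 75.5 ± 85.7 CPM in knockout liver, with an adjusted p of 0.0785. Over the 21 tested growth hormone and sex-biased genes, 3 were lower and 2 were higher, and the median log2 difference was -0.06. Selenbp2, a selenium-binding protein, ranged from 276 to 798 CPM in wild-type and from 93.3 to 866 CPM in knockout liver and did not pass the test.

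Chaperones of the endoplasmic reticulum were lower as well. Of 17 tested genes of the endoplasmic reticulum stress and ATF4 list, 6 were lower and none was higher, with a median log2 difference of -0.51. Creld2 was at 65.1, 122, 83.8, 74.3 and 125 CPM in wild-type and at 18.5, 33.8, 20.5, 17.4 and 15.4 CPM in knockout liver, 4.39-fold lower. Sdf2l1 was 2.66-fold lower, and Hspa5, the chaperone BiP, was at 1217 to 1855 CPM in wild-type against 440 to 790 CPM in knockout liver, 2.28-fold lower. C151S mice given vehicle, which carry functional Nfe2l2, were below the knockout mean, with 17.7 ± 8.29 CPM of Creld2, 14.02 ± 3.12 CPM of Sdf2l1 and 549 ± 118 CPM of Hspa5 (SD, n = 5). NRF2-dependent genes differed among themselves in C151S liver. Nqo1 was at 6.70 ± 0.385 CPM against 7.20 ± 2.38 CPM in wild-type liver. Me1 was at 90.6 ± 26.1 against 242 ± 47.3 CPM and Ces1g at 119 ± 51.0 against 273 ± 59.5 CPM. The paper reports lower basal NQO1 activity in C151S than in wild-type liver. Its qPCR also gave a lower Nqo1 transcript level in C151S than in wild-type mice after 1 dose of vehicle. The cause of the chaperone differences was not tested. The proteasome, which NRF2 and its relative NRF1 are both known to regulate, had no member past the threshold among 24 tested subunits by edgeR or DESeq2. All 24 log2 differences were below 0, from -0.40 to -0.12, and 15 had an unadjusted p under 0.05. Lipid synthesis was little changed in number, with 1 lower and 1 higher of 18 fatty acid genes and 1 lower of 24 cholesterol genes. Gpam, the first acyltransferase of glycerolipid synthesis, was 1.63-fold lower, Insig1, which retains the sterol sensor in the endoplasmic reticulum, was 1.70-fold lower, and Fads2, the delta-6 desaturase, was 1.97-fold higher. The call of Fads2 was lost in 5 of the 10 fits that left out 1 mouse.

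**Figure D3:**
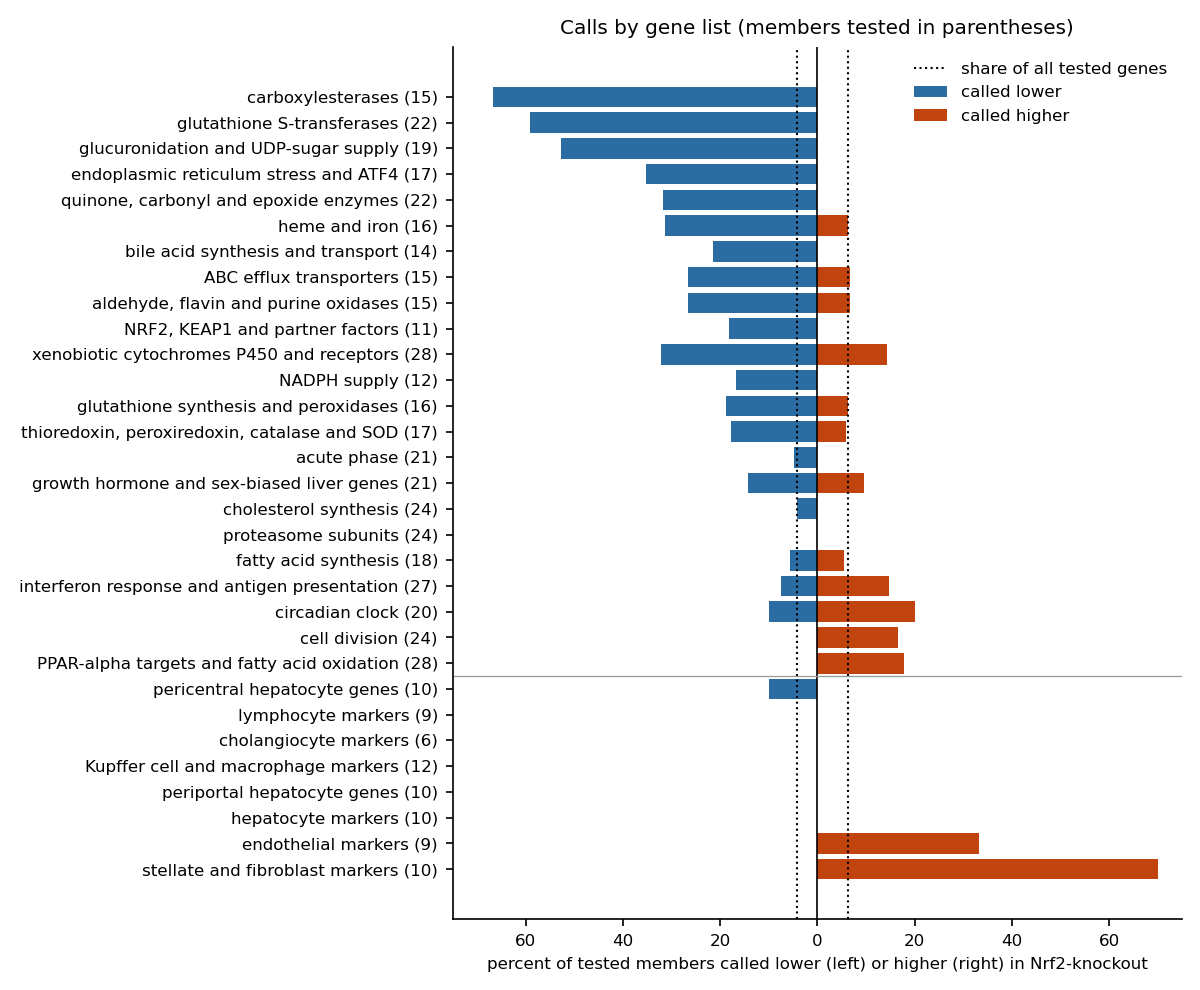
Percent of tested members of each gene list called lower (left) or higher (right) in knockout liver, with cell type and zonation lists below the grey line and the shares over all tested genes, 4.13% and 6.29%, as dotted lines. Carboxylesterases, glutathione S-transferases and glucuronidation reach furthest to the left, and stellate and fibroblast markers furthest to the right.

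Among genes higher without NRF2, the lowest p-value belonged to Igf2bp3 (ENSMUSG00000029814.10, chr6:49085223-49214957), an RNA-binding protein normally found in fetal tissues and tumours. It was at 0.0439, 0.309, 0.0525, 0.314 and 0.0706 CPM in wild-type and at 7.84, 8.23, 8.99, 3.50 and 5.56 CPM in knockout liver, a log2 difference of 5.404 with a standard error of 0.45 and an adjusted p of 5.49e-05. Pde6h, a phosphodiesterase subunit of cone photoreceptors, gave 1 count in the 5 wild-type libraries together and 10 to 93 counts in each knockout library. The ratio of pooled counts was 161, with a 95% counting interval of 28.5 to 6380 (exact, counting error only) that leaves out the spread between mice. The fitted difference was 98.9-fold. Igf2bp3, Pde6h and Cfap74, which is given below, were scarce in wild-type liver. They could pass the filter on low counts through the knockout libraries, which limits their p-values. Setd7, a lysine methyltransferase, was at 8.34 to 10.8 CPM in wild-type against 14.9 to 21.7 CPM in knockout liver, 2.05-fold higher. Aph1c, a gamma-secretase subunit, was 2.94-fold higher, Vsig10 3.26-fold, the ubiquitin ligase Dtx3 2.07-fold, the heat shock protein Hspa2 2.35-fold, the termination factor Gspt2 4.08-fold and the ciliary gene Cfap74 8.36-fold. In each of these 9 genes all 5 knockout mice lay above all 5 wild-type mice. They were chosen by low p-value in these same mice, so this separation is no further test. Lama3, a laminin chain, was 1.58-fold higher, at 6.96 to 9.44 CPM in wild-type against 9.63 to 14.2 CPM in knockout liver.

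Several of these transcripts were also above the purchased wild-type mice in the vehicle-treated C151S mice, which carry functional Nfe2l2 and were likewise bred from homozygous parents. Igf2bp3 was at 0.158 ± 0.140 CPM in wild-type, 6.82 ± 2.26 CPM in Nrf2-knockout and 3.56 ± 0.856 CPM in C151S liver (SD, n = 5 each). Pde6h was at 0.00525, 0.990 and 0.626 CPM on average in the same order. Setd7 was at 9.38 ± 0.911 CPM, 18.9 ± 2.65 CPM and 12.045 ± 0.992 CPM, so that C151S liver lay between the others. Aox1 and Gstm1 were also between the others in C151S liver. Aox1 was at 157, 18.7 and 91.6 CPM and Gstm1 at 2006, 321 and 1342 CPM. By the paper, basal NQO1 activity is also lower in C151S than in wild-type liver. These levels are a description, since both comparisons would share the wild-type mice. The part of colony in the knockout differences and that of basal NRF2 activity in the C151S levels were not tested.

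Immunoglobulin genes, a group chosen after its values were seen, are given by level alone, because scarce members could pass the filter on low counts through the knockout libraries. Ighg2b was at 0.0878 to 0.343 CPM in wild-type and at 2.22, 4.76, 7.93, 18.3 and 4.14 CPM in knockout mice, and Ighg2c at 0 to 0.137 CPM and 0.876 to 9.07 CPM. Immunoglobulin genes summed to 17.02 to 32.89 CPM in wild-type, 31.02 to 113.3 CPM in knockout and 30.83 to 61.67 CPM in C151S livers. None of the 9 tested lymphocyte markers was called by edgeR and 1 by DESeq2. Their median log2 difference was 0.62, and 3 of them had an unadjusted p under 0.05.

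Fatty acid oxidation genes under the control of PPARα were higher at 5 of 28 tested members and lower at none, although the median log2 difference of the list was 0.09. Cyp4a14, a microsomal fatty acid hydroxylase, was at 231, 223, 64.4, 160 and 74.7 CPM in wild-type and at 1145, 631, 671, 1154 and 934 CPM in knockout liver, 6.09-fold higher with an adjusted p of 0.00145. Its relative Cyp4a31 was 3.31-fold higher, at 5.46 to 11.3 CPM in wild-type against 21.1 to 33.9 CPM in knockout liver. The acyl-CoA thioesterase Acot2 was 2.07-fold higher, and the other called members were Acot1 and Cpt1a. Acot6, a related thioesterase outside the list that is among the 12 higher genes of lowest p, was 2.96-fold higher. No knockout mouse overlapped with wild-type for Cyp4a14, Cyp4a31, Acot2 or Acot6, genes that were chosen by p-value in these same mice.

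**Figure D4:**
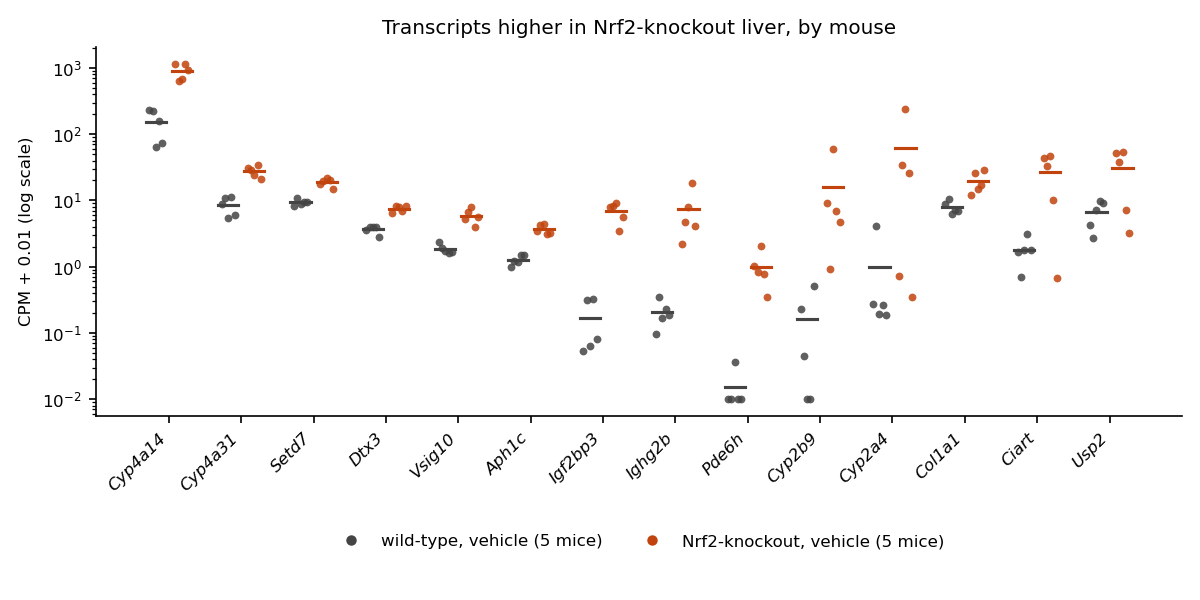
CPM plus 0.01 on a log scale in each of 5 wild-type and 5 Nrf2-knockout mice given vehicle for 14 transcripts higher in the knockout, with a line at each group mean. Cyp4a14 to Pde6h are separated in every mouse, Cyp2a4, Ciart and Usp2 overlap between the groups, and Cyp2b9 and Cyp2a4 each have 1 knockout mouse far above the rest. The genes were drawn from those called higher in these same mice.

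Some markers of other liver cells were also higher in the knockout. Of 10 stellate cell and fibroblast markers 7 were higher, among them the collagen genes Col1a1, at 6.30 to 10.5 CPM in wild-type against 12.2 to 28.7 CPM in knockout liver, Col1a2 (2.37-fold higher) and Col3a1 (2.61-fold higher). The summed level of that list was 207.7 to 316.5 CPM in wild-type against 240.7 to 604.4 CPM in knockout liver. Of 9 endothelial markers 3 were higher, namely Pecam1 (1.62-fold), Stab2 (1.72-fold) and Lyve1, whose call was lost in 4 of the 10 fits that left out 1 mouse. All 9 had a log2 difference above 0, and their summed level was 254.7 to 308.1 CPM in wild-type against 305.3 to 504.4 CPM in knockout liver. In the mice given CDDO-Me, 2 of the 10 stellate and fibroblast markers and 1 of the 9 endothelial markers were called higher. Col3a1, Pecam1, Stab2 and Lyve1 lost their calls with 1 surrogate variable. None of 12 macrophage, 6 cholangiocyte and 10 hepatocyte markers passed the test with edgeR, with 3, 0 and 1 of them at an unadjusted p under 0.05, and DESeq2 called 1 macrophage marker. The log2 difference was above 0 for 11 of the macrophage, all 6 cholangiocyte and 4 of the hepatocyte markers. The hepatocyte markers summed to 103700 to 123700 CPM in wild-type against 118700 to 132200 CPM in knockout liver, so the tissue was liver in every mouse. In whole liver, fewer cells of a type and less RNA per cell cannot be told apart, and the part of these cell types in other differences was not tested.

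Cell division genes were higher at 4 of 24 tested members, with 23 of 24 above 0 and a median log2 difference of 0.89. Ccnd1, cyclin D1, was at 11.6 to 28.9 CPM in wild-type and at 33.9, 118, 107, 54.1 and 25.0 CPM in knockout mice. Mcm6, of the replicative helicase, was 2.08-fold and Bub1b, of the spindle checkpoint, 1.98-fold higher, with calls lost in 6 and 7 of the 10 fits that left out 1 mouse. Ccna2, cyclin A2, was at 1.11 ± 0.199 CPM in wild-type against 2.03 ± 1.08 CPM in knockout liver, with an adjusted p of 0.0872. Interferon response and antigen presentation genes were lower at 2 (Oasl1 and Ifi27) and higher at 4 of 27 tested members. Over all tested genes the shares were 4.13% lower and 6.29% higher. The higher members include Oasl2 (1.70-fold higher), Usp18 (1.85-fold higher) and H2-Aa (1.81-fold higher, lost in 7 of the 10 fits that left out 1 mouse). In the mice given CDDO-Me, 1 of the 27 was called higher and none lower.

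The knockout mice fell on both sides of a wide gap in the level of a clock gene, and the hour at which livers were taken is not in the labels. Arntl, which encodes the clock activator BMAL1, was at 12.1, 27.6, 9.52, 11.2 and 13.3 CPM in wild-type and at 1.44, 0.963, 0.630, 11.2 and 16.0 CPM in knockout mice. Knockout replicates 1, 2 and 3 were thus low while replicates 4 and 5 were within the wild-type range. Clock output genes followed the same division. Dbp was at 187, 176, 172, 34.6 and 39.4 CPM, Usp2 at 51.2, 37.3, 54.7, 7.09 and 3.17 CPM and Ciart at 43.5, 33.2, 47.2, 10.1 and 0.674 CPM in knockout replicates 1 to 5, against 12.6 to 66.8, 2.71 to 9.86 and 0.686 to 3.08 CPM in wild-type mice. Of 20 tested clock genes, 2 were lower (Clock and Nfil3) and 4 were higher. The 7 libraries on the high side of Arntl are those of all wild-type mice and of knockout replicates 4 and 5. With only the 7 libraries on the high side of Arntl, none of the 20 was called by edgeR and 2 had an unadjusted p under 0.05, the median log2 difference of the list was -0.15 instead of 0.37, and the log2 difference of Usp2 was -0.33 instead of 2.22. In those 7 libraries 496 genes were lower and 672 higher.

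In the same 7 libraries on the high side of Arntl, glutathione S-transferases had 15 lower members of 22 tested, carboxylesterases 10 of 16, glucuronidation 9 of 20 and the quinone list 6 of 22, and none of these lists had a higher member. The log2 difference was -2.79 for Aox1, -2.42 for Gstm1, -3.71 for Ces1g, -1.78 for Nqo1 and 4.82 for Igf2bp3, with an adjusted p of at most 0.022 for each. The stellate list had 7 higher members of 10 there with a median log2 difference of 1.22, the endoplasmic reticulum list had 5 lower members and the PPARα list 3 higher ones. No cell division gene was called in those libraries by edgeR, and 5 of 25 had an unadjusted p under 0.05. Clock, Nfil3, Dbp, Ciart, Ccnd1, Mcm6, Bub1b, Fads2, Insig1, Txn1, Bach2, Usp18, Lama3 and Cyp2a4 also lost their calls there. That fit has fewer knockout mice, so a call can be lost with little change in size. The log2 difference of Insig1 was -0.76 there against -0.77 in all 10 libraries, and that of Bach2 -1.08 against -1.20. That of Dbp was 0.10 against 1.80.

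The same genotype difference was measured in other mice, 24 hours after 1 dose of CDDO-Me. Of 13935 genes tested there, 676 (4.85%) were lower and 639 (4.59%) higher in the knockout. No library is shared between the 2 comparisons, but the treated mice came from the same sources, so colony and genotype cannot be told apart there either. Of the 579 basally lower genes, 576 were tested in the treated mice and 322 (55.9%) were lower again, which is 47.6% of the lower genes found there. Of the 883 basally higher genes, 851 were tested and 291 (34.2%) were higher again, or 45.5% of the higher genes found there. No gene was called in opposite directions. The median log2 difference of the basally lower genes was -0.79 with vehicle and -0.76 with CDDO-Me, and that of the basally higher genes 0.85 and 0.60.

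**Figure D5:**
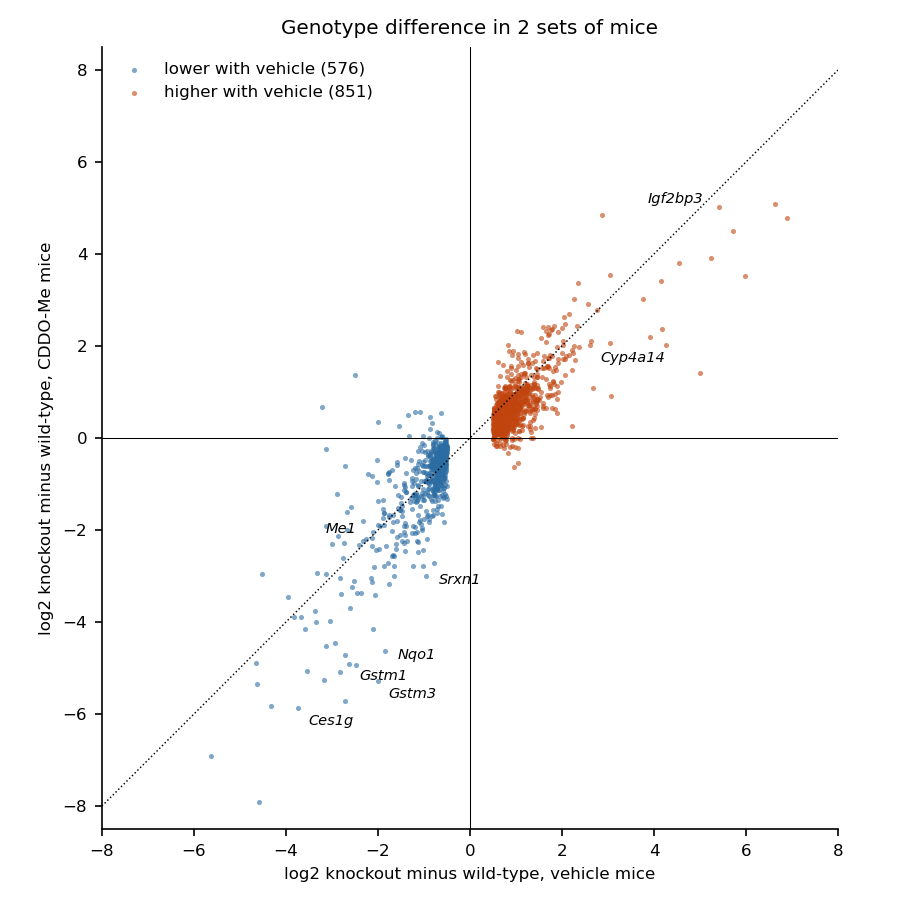
Log2 difference between knockout and wild-type in vehicle-treated mice (horizontal) and in CDDO-Me-treated mice (vertical) for 576 basally lower and 851 basally higher genes, with a dotted line where both are equal. Gstm1, Gstm3, Nqo1, Srxn1 and Ces1g lie below the line, and Me1 lies near it.

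A difference of the genotype effect between vehicle and CDDO-Me was called for 40 of 15010 genes in 1 fit of all libraries, of which 24 were basally lower and 2 basally higher. Gstm3 was at 150 CPM in wild-type against 36.5 CPM in knockout liver with vehicle and at 1344 and 34.0 CPM with CDDO-Me. Srxn1 was at 56.6 and 28.9 CPM with vehicle and at 259 and 32.2 CPM with the drug, and Nqo1 at 7.20 and 1.96 CPM with vehicle and at 64.3 and 2.55 CPM with the drug. Cbr3, for which no basal difference was detectable, was at 21.7 and 0.330 CPM in wild-type and knockout liver with CDDO-Me. For Me1 and Aox3 no difference of the genotype effect between treatments was detectable in that fit. On the log2 scale it was 0.09 for Me1 (standard error 0.43, adjusted p of 0.99) and 0.05 for Aox3 (standard error 0.45, adjusted p of 0.997). Errors of this size leave room for a change in either direction.

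Genes close to the targeted locus can differ between a knockout and its control through the strain in which the allele was made. Within 10 Mb on either side of Nfe2l2 on chromosome 2, 91 genes were tested, of which 4 were lower, Nfe2l2 included, and 7 were higher. This is 12.1% of them, against 10.4% of all tested genes. Abcb11, given above, is 1 of the 4. Among the higher ones Slc43a1, an amino acid transporter, was 2.54-fold, Tnks1bp1 1.56-fold and Cerkl 1.71-fold higher, and all 3 lost their calls in the 7 libraries on the high side of Arntl. Nnt, whose defect distinguishes the C57BL/6J substrain, was at 0.432 ± 0.0796 CPM in wild-type against 0.454 ± 0.0819 CPM in knockout liver, and no difference was detectable.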

How the data were processed

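Liver RNA was sequenced as stranded paired-end libraries, and the authors deposited raw counts per gene for 30 libraries, made with fastp, STAR 2.7.7 on mm10 and GENCODE gene models. All 10 libraries of vehicle-treated wild-type and Nrf2-knockout mice were used, and the 4 summary rows of the aligner were left out of library sizes. Genes passing filterByExpr were tested with the quasi-likelihood test of edgeR 4.0.16 (R 4.3.3) in the form of earlier releases, with TMM scaling and Benjamini-Hochberg adjustment over all tested genes. No batch term could be fitted because the isolation day is not in the labels. CPM used TMM factors over the 30 libraries. A group at or under 3 counts was treated as at the floor, equal to 0.06518 to 0.1317 CPM. Other settings and tools (DESeq2 1.42.0, sva 3.50.0) were tried. Scripts were tested on simulated data. Symbols and positions are from GENCODE on GRCm38. The genes named are the targeted gene, its repressor and Arntl, 9 genes known from the study, the 12 of lowest p and the 5 of largest change in each direction with a mean of at least 1 CPM in the higher group, up to 3 of lowest p in each list, members of the NRF2 partner, glutathione and NADPH lists, and genes near Nfe2l2. The comparison, gene lists and rules were chosen with earlier results of these data known.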

Additional observations from a re-analysis of the deposited data

Results flagged for a closer look

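Within a group of 5 mice, 1 mouse stood apart from the other 4 by Dixon's criterion in 25 of 228 sets of values examined, of which chance alone gives about 1 in 20. The values are CPM in that mouse against the range of the other 4. Wild-type replicate 2 was highest for Arntl (27.6 against 9.52 to 13.3), Sqstm1 (514 against 386 to 407), Gsta1 (3.74 against 1.63 to 1.89), Gpx4 (187 against 140 to 150), Cyp2a4 (4.08 against 0.176 to 0.264), Fads2 (664 against 480 to 518), Ccnd1 (28.9 against 11.6 to 16.5), Lyve1 (14.7 against 6.72 to 7.70) and lowest for Abcg2 (80.3 against 102 to 109), Clock (43.5 against 54 to 58.1). Wild-type replicate 1 was highest for Ugt2b5 (1029 against 817 to 862), Gclc (445 against 365 to 387), Abcc3 (425 against 326 to 343), Cyp3a25 (1046 against 744 to 820), Cerkl (3.34 against 2.06 to 2.4). Knockout replicate 1 was highest for Mafg (127 against 60.6 to 74.6), Mup17 (53.1 against 0.33 to 14.5) and lowest for Col3a1 (48.6 against 98.7 to 113), H2-Aa (16.9 against 37.8 to 44.7). Knockout replicate 3 was highest for Acot2 (5.97 against 3.32 to 3.87), Cyp2b9 (59.1 against 0.914 to 9.25), Cyp2a22 (14.7 against 2.12 to 3.87), Cyp2a4 (244 against 0.337 to 34.2). Knockout replicate 2 was highest for Creld2 (33.8 against 15.4 to 20.5). Knockout replicate 4 was highest for Ighg2c (9.07 against 0.876 to 1.88).

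The genotype difference itself differed between mice given vehicle and mice given CDDO-Me, by the interaction term of 1 edgeR fit of all 30 libraries, for 16 of the genes named above, and in all 16 it was more negative with CDDO-Me. On the log2 scale the change ran from -5.33 at Cbr3 (adjusted p of 6.71e-09) to -0.58 at Gclm (adjusted p of 0.0323). The values between were -3.27 for Gstm3, -2.78 for Nqo1, -2.28 for Gstm1, -2.14 for Ces1g, -2.04 for Srxn1, -1.42 for Gstm4, -1.38 for Ces1b, -1.36 for Ugdh, -1.35 for Blvrb, -1.13 for Ephx1, -1.08 for Pgd, -0.87 for Ftl1, -0.85 for Txnrd1, -0.85 for Entpd5. The adjusted p of these 16 genes was at most 0.0408.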

How the results depend on the processing

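With 5 mice a group, low counts limit statements on genes under about 1 CPM, and p-values cover the spread between these mice only. Of the named genes that were called, 98 were followed under the alternatives. Of these, 59 kept their call and direction under every alternative that gave a value. All 98 did with DESeq2, and 63 did with 1 surrogate variable. The direction was reversed for Usp2 alone, with a log2 difference of -0.34 with the Arntl side as a covariate and -0.33 in the libraries on the high side of Arntl. The 579 lower and 883 higher genes became 1132 lower genes without a threshold on the fold change, 200 and 325 at a log2 difference of at least 1, 357 and 269 with 1 surrogate variable, and 502 higher genes with the Arntl side as a covariate. Without 1 mouse they ranged from 430 to 699 lower and from 495 to 1373 higher genes. The overlap with CDDO-Me-treated mice, 322 lower and 291 higher genes, became 208 and 147 with the Arntl side as a covariate, 137 and 127 at a log2 difference of at least 1, 505 lower without a fold threshold and 448 higher with DESeq2. The cause of these shifts was not tested. With the replicate number as a block, 559 lower and 648 higher genes were called, of which 506 and 595 were among the calls without it. The numbers do not pair the mice: deviations of same-numbered mice correlated between -0.0779 and 0.152. The interaction count of 40 was 41 to 57 under alternatives chosen after seeing the data.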
